A study of Mus musculus with 6 samples.

Results

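The genes described here are 43 genes of DNA replication licensing, the replisome and deoxynucleotide supply, chosen by symbol from a named list, in hearts of mouse embryos that lack the PKM1 isoform of pyruvate kinase. All 43 symbols were among the 13809 genes of the count table, and all 43 passed edgeR's filter on low counts, so none was lost before the test. RNA was taken from hearts at embryonic day (E) 18.5, with 3 WT libraries and 3 *Pkm1*-KO libraries. The KO is a germline, homozygous deletion in the *Pkm* exon that only the PKM1 transcript uses, made with CRISPR/Cas9. The isoform is therefore missing from every cell type of the embryo and not only from cardiomyocytes. Heart is the tissue the labels give, and the study's text speaks of ventricular tissue. The study describes the replicates of each genotype as biological, but neither source says whether embryos were pooled or shared a litter.

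Before S phase, the origin recognition complex binds DNA, and with CDC6 and CDT1 it loads the MCM2-7 ring that will become the core of the replicative helicase. Geminin holds CDT1 back, and CDC45 and the GINS complex turn the loaded ring into an active helicase at the start of S phase. The polymerases, the sliding clamp and its loader then copy the DNA, while ribonucleotide reductase, thymidylate synthase and thymidine kinase supply deoxynucleotides. Cardiomyocytes still divide late in gestation and largely stop soon after birth. RNA of these genes in a late fetal heart can come from myocytes and from endothelial, stromal and blood cells. Which cells it came from, and whether they were cycling, was not tested. In bulk tissue, fewer cells in S phase and less RNA per cell cannot be told apart.

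Levels are given as CPM, the counts of a gene scaled to the size of its library, here with edgeR's TMM factors, in the order WT a, WT b, WT c and KO a, KO b, KO c. The letters follow the order of the columns, which give the genotype alone. Statements on whether CPM of the groups overlap refer to TMM scaling unless library totals are named. A gene was called lower or higher in KO hearts where the quasi-likelihood test of edgeR gave a p under 0.05 after Benjamini-Hochberg adjustment over all 13804 genes tested. Adjusted p-values below come from that test unless another is named.

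The WT libraries held 15597756 to 19875546 counts and the KO libraries 15567624 to 18577404, and the share of counts on the members was 0.166% to 0.171% in WT and 0.169% to 0.171% in KO libraries. *Pkm* itself averaged 1318 ± 41.1 CPM in WT and fell to 542 ± 10.1 CPM in KO hearts (SD, n = 3), a log2 fold change of -1.28 (adjusted p = 1.47e-23). WT c stood apart from the other WT libraries. Its counts differed from those of WT a and WT b with a chi-square per degree of freedom of 3.76 and 3.24, against 1.56 between WT a and WT b and 1.62 to 1.88 between KO libraries. Each of these pairs differed by more than sampling noise, so all libraries were kept apart in the main test. WT a and WT b, the closest pair, were summed as 1 library in an alternative. These values do not show whether 2 libraries came from the same RNA. *Xist*, the transcript of the inactive X, was at 5.26 CPM on average in WT and 2285 CPM in KO hearts, and none of the KO libraries held a count of the Y-linked *Ddx3y*, *Uty*, *Eif2s3y* or *Kdm5d*, so sex and genotype cannot be told apart in any difference below. *Pola1* is the member on the X chromosome. The summed level of 8 cardiomyocyte markers was 130043 to 133886 CPM in WT and 122564 to 123959 CPM in KO libraries, without overlap, with 7 of the 8 called lower and *Myh7* called higher. Atrial and epicardial marker sums were higher in KO hearts without overlap (595 to 601 against 1006 to 1030 CPM, and 124 to 127 against 141 to 155 CPM), and 3 of 6 genes of each list were called higher. With TMM scaling, fibroblast and smooth muscle and pericyte marker sums were lower in every KO library, with 2 and 3 of 6 genes called lower. The endothelial sum was also lower, with 2 genes called lower and 1 higher. The gaps were small for smooth muscle and pericytes (922 to 964 against 909 to 913 CPM) and endothelium (1054.6 to 1055.3 against 1025.8 to 1040.5 CPM). The TMM factors themselves separate the genotypes, and whether any marker sum separates with library totals was not tested. Of the erythroid markers, 3 were analysed here, 1 called in each direction, and of the macrophage and leukocyte markers 1 of 6 was called lower. No marker analysed was at 0 in every library. The part of these shifts in the values of the replication genes was not tested.

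Few of the replication genes differed between KO and WT hearts, and the differences were small. Of the 43, *Rrm2*, *Orc3* and *Mcm4* fell and *Orc5* and *Cdc6* rose, 5 genes where 30.3% of all genes tested were called in either direction, and the remaining 38 were not called. The 3 lower genes are 6.98% of the members, beside 15.7% of all genes tested that were called lower. The 2 higher genes are 4.65% of the members, beside 14.6% of all genes tested. Without adjustment for multiple tests, 6 members were lower and 5 higher at a p under 0.05, beside 20.8% and 20% of all genes. With TMM scaling, every KO library was below every WT library for 7 members, beside 21.4% of all genes. These were *Orc3*, *Mcm4*, *Gins4*, *Pold2*, *Rfc3*, *Rrm1* and *Rrm2*. Every KO library was above every WT library for 3 (*Orc5*, *Cdc6* and *Pold3*), beside 21% of all genes. By library totals such separations need not hold. *Orc3* had 1149 of 15567624 counts in KO b and 1145 of 15597756 in WT c, so by totals those 2 libraries crossed. The median absolute log2 fold change was 0.0852 over the members and 0.131 over all genes tested, with median standard errors of 0.0743 and 0.0751. The median log2 fold change was -0.05 over the members with TMM scaling and 0.00193 with plain library totals, a scaling added after the data were seen, while over all genes it was 0.00172 and 0.0492.

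**Figure D1:**
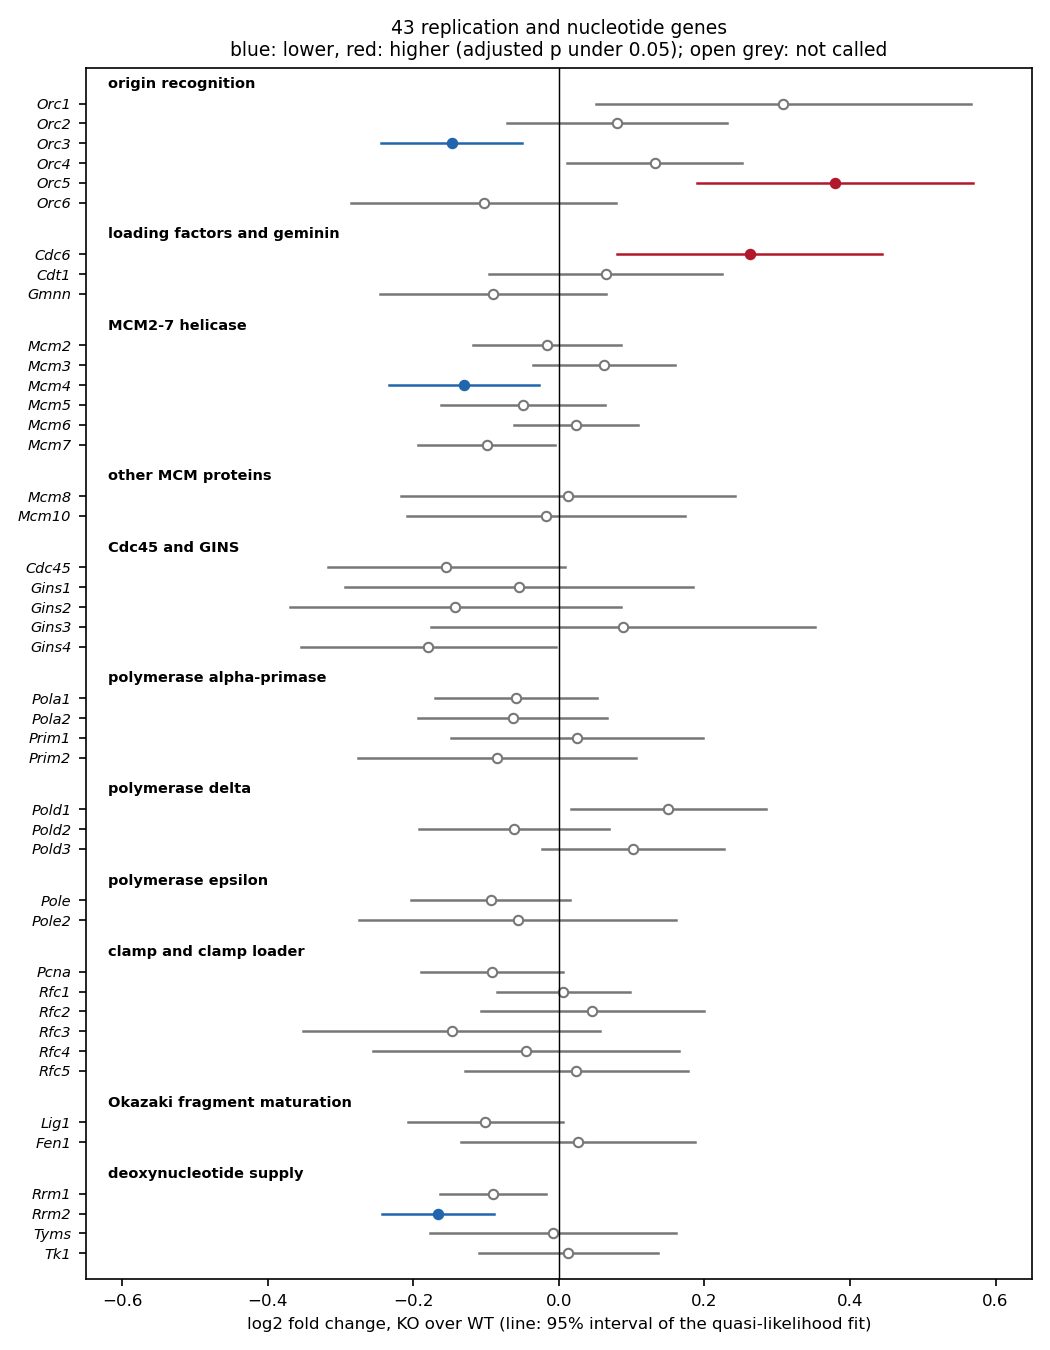
Log2 fold change of KO over WT for the 43 genes, grouped by role, with points for the estimate and lines for the 95% interval of the quasi-likelihood fit. Filled blue points are genes called lower, filled red points genes called higher and open grey points genes not called, and the called genes lie at -0.17 (*Rrm2*), -0.15 (*Orc3*), -0.13 (*Mcm4*), 0.26 (*Cdc6*) and 0.38 (*Orc5*).

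The summed level of the 43 genes showed how far a small common shift depends on scaling. With TMM scaling the sum was 1711, 1735 and 1699.9 CPM in the WT libraries and 1662, 1666 and 1680.1 CPM in the KO libraries, so that the groups did not overlap. With plain library totals the sums were 1692, 1710.2 and 1659 CPM in WT and 1689, 1695 and 1709 CPM in KO, and they overlapped. The TMM factors themselves separated the genotypes, at 0.976 to 0.989 in WT and 1.016 to 1.017 in KO. A shift of this size in the sum was therefore not separable from the choice of scaling. Over all genes, the same change of scaling moved the calls from 2168 lower and 2011 higher to 1527 lower and 2911 higher. Among the members it left *Rrm2* as the 1 gene called lower and gave 5 called higher, *Orc1*, *Orc4*, *Orc5*, *Cdc6* and *Pold1*.

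Libraries of 1 genotype differed from each other by a few percent for most members. The coefficient of variation over 3 libraries had a median of 6.16% in WT (range 0.257% to 13.5%) and 4.36% in KO (range 0.887% to 11.7%). WT c was the lowest WT library for 21 of the 43 genes and the highest for 14, while WT b was the lowest for 9 and the highest for 16. Leaving out WT c moved the calls most, to 6 lower (*Orc3*, *Mcm4*, *Mcm7*, *Pcna*, *Rrm1* and *Rrm2*) and 4 higher (*Orc1*, *Orc5*, *Cdc6* and *Pold1*). Of all genes tested without WT c, 16.7% were called lower and 14.6% higher.

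Promoter sequence is given first, for 3 of the members. The windows are RefSeq's, on build GRCm38.p6, from 250 bases before to 50 after each start, and 35 of the 43 members were matched by symbol. *Mcm4*, *Gmnn*, *Gins1*, *Gins2*, *Gins4*, *Prim2*, *Pole* and *Rfc2* had no entry. *Rrm2* and *Rrm1* are shown because they encode the 2 subunits of ribonucleotide reductase, of which *Rrm2* was called lower and *Rrm1* lay nearest to the threshold among the genes not called, and *Mcm6* because it was the most abundant MCM2-7 subunit per kilobase of all exon bases and was not called. With the longest transcript as the length, *Mcm7* was above *Mcm6*. Each stretch lies outside every annotated exon of GENCODE M21 and is written 5′ to 3′ along the gene's own strand. Capitals mark the letters CCAAT (the box that the NFY factor binds), TTTCCCGC, TTTGGCGC or TTTCGCGC (E2F boxes) and GGGCGG (the GC box that Sp factors bind), each searched on both strands, so that ATTGG, GCGCCAAA, GCGGGAAA, GCGCGAAA and CCGCCC are the same boxes on the other strand.
Rrm2, chr12:24708004-24708240, plus strand: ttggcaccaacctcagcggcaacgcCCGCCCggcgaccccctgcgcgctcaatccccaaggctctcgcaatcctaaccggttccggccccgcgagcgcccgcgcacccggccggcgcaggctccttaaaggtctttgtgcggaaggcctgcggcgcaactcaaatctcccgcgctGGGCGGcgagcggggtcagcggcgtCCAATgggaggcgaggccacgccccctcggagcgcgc
Rrm1, chr7:102441445-102441694, plus strand: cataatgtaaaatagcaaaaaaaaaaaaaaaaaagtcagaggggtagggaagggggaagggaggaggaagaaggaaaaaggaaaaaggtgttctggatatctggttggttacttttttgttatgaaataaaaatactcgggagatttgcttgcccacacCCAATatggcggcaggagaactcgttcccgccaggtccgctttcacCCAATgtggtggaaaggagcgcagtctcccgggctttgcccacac
Mcm6, chr1:128359706-128359955, minus strand: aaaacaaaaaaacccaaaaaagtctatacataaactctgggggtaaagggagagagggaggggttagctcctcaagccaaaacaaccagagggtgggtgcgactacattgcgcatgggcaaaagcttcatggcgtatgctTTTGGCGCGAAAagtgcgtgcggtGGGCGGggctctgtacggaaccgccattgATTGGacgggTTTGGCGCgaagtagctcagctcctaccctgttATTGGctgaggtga

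The *Rrm2* stretch held 1 CCAAT, whose first base lies 50 bases before the RefSeq start, and 2 GC boxes, and 72.6% of its bases were G or C. The *Rrm1* stretch held 2 CCAAT boxes, 91 and 45 bases before the start, with a G and C content of 46.0% and a run of A bases at its far end. The *Mcm6* stretch held 3 E2F boxes, of which those beginning 110 and 106 bases before the start overlap on opposite strands and the third begins at 47, together with 2 CCAAT boxes on the other strand at 57 and 14 and 1 GC box at 86. Of the other called genes, *Orc3* had 1 E2F box at 41 and 1 GC box at 242 in a window that overlaps exons of *Rars2*, and *Orc5* had 2 GC boxes at 226 and 45 in a window that overlaps exons of *6030443J06Rik*. *Cdc6* had 1 E2F box on the other strand at 138. Its RefSeq start lies inside the GENCODE gene, downstream of the first annotated exon.

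E2F boxes were more frequent in the windows of the members than in promoters at large. An E2F box was present in the window of 16 of 35 members (45.7%), against 3.98% of 10325 genes in the count table and 2.12% of 27025 genes with a RefSeq window. CCAAT was present for 21 members (60.0%), against 42.3% and 41.1%, and a GC box for 27 members (77.1%), against 67.6% and 38.2%. The members are replication genes chosen by function, and these shares are descriptions of the letters in these windows. In windows cut to 150 bases before the start, the E2F box was still found for 16 members and CCAAT for 18.

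The changes in KO hearts are set beside these letters as a description, with no test. Members with CCAAT in the window had log2 fold changes from -0.17 to 0.31 with a median of -0.02, and 1 of 21 was called lower and 0 higher. Members without it ran from -0.15 to 0.38 with a median of 0.02, and 1 of 14 was called lower and 2 higher. With an E2F box the median was 0.02 over 16 members, and without it -0.02 over 19, with 1 gene called in each direction in both sets. Of the 3 genes of the CCAAT-binding factor NFY, *Nfya* and *Nfyc* were higher in KO hearts. *Nfya* rose from 43.1 ± 2.32 to 51.8 ± 2.39 CPM (SD, n = 3; log2 fold change 0.27, adjusted p = 0.000692), and *Nfyc* from 68.5 ± 1.43 to 79.8 ± 4.22 CPM (0.22, adjusted p = 0.000773). *Nfyb*, the other subunit, was at 22.1 ± 1.22 and 21.8 ± 1.67 CPM and was not called (-0.02, adjusted p = 0.89). These are RNA levels and carry no measure of the NFY proteins. By qRT-PCR in E18.5 hearts the study found *Nfya* mRNA unchanged in KO, and by western blot and staining it found less NFYa protein. Why *Nfya* RNA differs between the sequencing and the qRT-PCR was not tested.

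The origin recognition complex marks origins and recruits the loading factors, and its 6 subunit genes did not move together. *Orc5* rose and *Orc3* fell, and *Orc1*, *Orc2*, *Orc4* and *Orc6* were not called. *Orc5* (chr5:22486485-22550429, minus strand of GRCm38) was at 14.7, 13.8 and 11.3 CPM in WT and 17.0, 16.8 and 18.1 CPM in KO hearts, so that the groups did not overlap. Its log2 fold change was 0.38 (standard error 0.0922, 95% interval 0.19 to 0.57, adjusted p = 0.00255), and it was called under all 18 alternatives. *Orc5* was lowest in WT c, and without that library its log2 fold change was 0.29 (adjusted p = 0.0122), so its rise did not need that library. A processed pseudogene, *Gm15421*, overlaps 1.46% of its exon bases.

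*Orc3* (chr4:34570796-34614944, minus strand) was at 78.2, 83.4 and 75.2 CPM in WT and 70.6, 72.6 and 71.2 CPM in KO hearts. The KO libraries lay close together and below all WT libraries, at a log2 fold change of -0.15 with an adjusted p of 0.0184 (standard error 0.0469). The call held under 14 of 18 alternatives and was lost without WT b (adjusted p = 0.143), without KO a (0.0758), without KO c (0.0615) and with library totals in place of TMM (0.114). The ratio of *Orc5* to *Orc3* counts, which needs no scaling between libraries and was formed after the values were seen, was 0.187, 0.165 and 0.150 in WT and 0.241, 0.232 and 0.254 in KO hearts.

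*Orc1*, the ATPase subunit whose level is regulated over the cell cycle, lay just outside the threshold. It was at 5.97, 6.43 and 7.36 CPM in WT and 8.16, 7.2 and 8.91 CPM in KO, and KO b fell below WT c. Its log2 fold change was 0.31 with a 95% interval of 0.05 to 0.57 (adjusted p = 0.064), among the widest intervals of the members, and its library counts were 103 to 166. It was called without WT c (0.39, adjusted p = 0.0241), without KO b (0.38, adjusted p = 0.0438), with library totals (0.36, adjusted p = 0.0304) and by edgeR's likelihood ratio test (0.31, adjusted p = 0.0448). *Orc4*, another ATPase-fold subunit, was at 37.1 to 42.3 CPM in WT and 42.3 to 45.0 CPM in KO (0.13, adjusted p = 0.0914). *Orc2* was at 22.5 to 26.1 and 23.9 to 27.1 CPM (0.08, adjusted p = 0.443), with 29.8% of its exon bases overlapped by *Nif3l1* on the opposite strand. *Orc6* was at 14.0 to 16.2 and 13.1 to 14.6 CPM (-0.10, adjusted p = 0.405).

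Of the loading factors, *Cdc6* rose and *Cdt1* was not called. *Cdc6* (chr11:98907801-98923940, plus strand) encodes the ATPase that joins the origin recognition complex to load the ring. It was at 12.2, 12.8 and 14.5 CPM in WT and 15.4, 15.6 and 16.2 CPM in KO, without overlap, although WT c and KO a were less than 1 CPM apart. Its log2 fold change was 0.26 (standard error 0.0886, 95% interval 0.08 to 0.44, adjusted p = 0.0258). It was called under 11 of 18 alternatives. The call was lost without WT a (adjusted p = 0.11), WT b (0.0938), KO a (0.0522), KO b (0.057) or KO c (0.0924), with DESeq2 (0.0889) and with WT a and WT b summed as 1 library (0.0548). Without WT c it was 0.33 (adjusted p = 0.00563). About 3.93% of the 50-base words in its transcripts also occur in other genes, most often in *Gm9430*.

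*Cdt1*, which delivers the MCM2-7 ring, was at 28.6, 32.3 and 24.6 CPM in WT and 30.4, 27.8 and 31.4 CPM in KO hearts. *Gmnn*, which encodes its inhibitor geminin, was at 24.8, 22.7 and 25.0 CPM in WT and 23.8, 20.3 and 23.6 CPM in KO. Both overlapped between genotypes, with adjusted p-values of 0.575 and 0.394. The interval of the difference in the main fit ran from -6.43% to 16.8% for *Cdt1* and from -15.7% to 4.61% for *Gmnn*. Neither interval covers the choice of scaling or of libraries, so larger changes are not excluded. With each library left out, the log2 fold change ran from -0.0261 to 0.167 for *Cdt1* and from -0.140 to -0.0241 for *Gmnn*. The ratio of *Cdt1* to *Gmnn* counts was 1.15, 1.42 and 0.984 in WT and 1.28, 1.37 and 1.33 in KO hearts, and the widest spread was among the WT libraries.

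**Figure D2:**
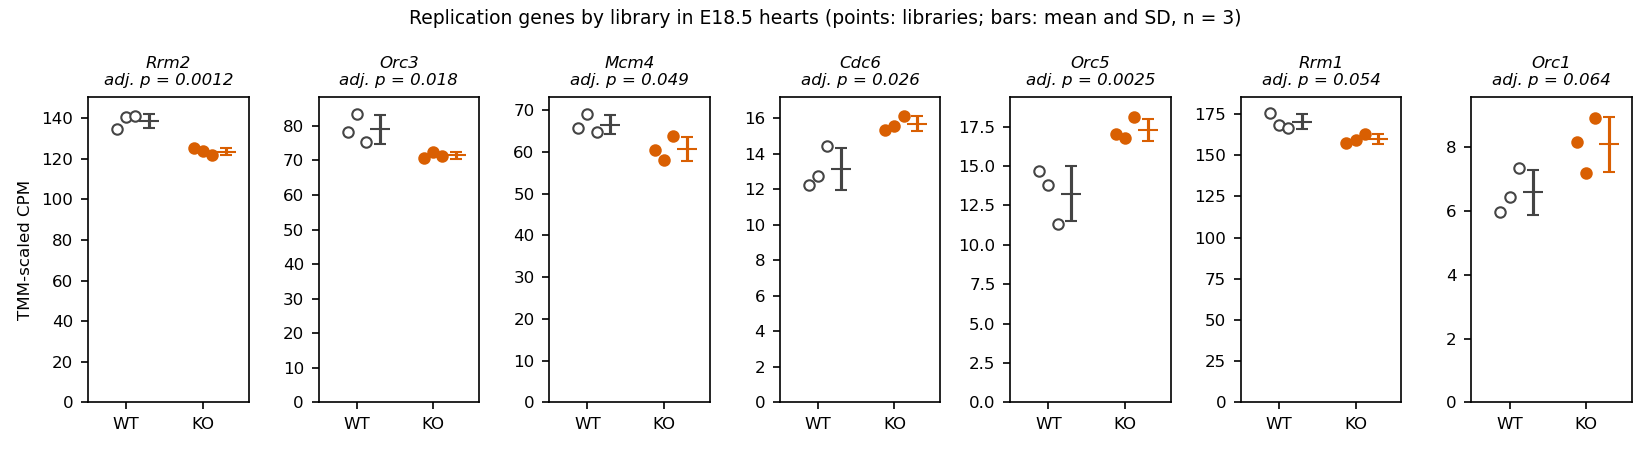
Levels in each library (TMM-scaled CPM, axes from 0) of the 5 called genes and of *Rrm1* and *Orc1*, the nearest outside the threshold, with open points for WT, filled points for KO and bars for the mean and SD (n = 3). *Rrm2*, *Orc3* and *Mcm4* show all KO points below all WT points, *Cdc6* and *Orc5* all above, and the *Orc1* groups overlap.

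Of the 6 genes of the MCM2-7 ring, *Mcm4* fell and the other 5 were not called. The log2 fold changes of the 6 ran from -0.13 (*Mcm4*) to 0.06 (*Mcm3*). *Mcm4* (chr16:15623897-15637400, minus strand) was at 65.7, 69.0 and 64.6 CPM in WT and 60.5, 58.0 and 63.8 CPM in KO. The highest KO and the lowest WT library were less than 1 CPM apart. The log2 fold change of -0.13 had an adjusted p of 0.0494 (standard error 0.0499), the closest to the threshold of the called genes. It was called under 10 of 18 alternatives and lost without WT a (adjusted p = 0.0633), WT b (0.2), KO a (0.131) or KO b (0.208), with DESeq2 (0.115), with at least 10 counts asked of every library (0.0535), after summing WT a with WT b (0.0868) and with library totals (0.224).

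*Mcm6* was at 98.1, 99.4 and 93.6 CPM in WT and 96.2, 101 and 99.2 CPM in KO (0.02, adjusted p = 0.715), and its interval, -4.22% to 7.81%, was among the narrowest of the members. *Mcm7* was at 78.9 to 82.4 CPM in WT and 72.9 to 79.4 CPM in KO (-0.10, adjusted p = 0.103). It was called lower under 1 of 18 alternatives, without WT c (-0.12, adjusted p = 0.0376), and with library totals its adjusted p was 0.425. Of the 50-base words of *Mcm7*, 18.1% occur in other genes, most often in *Gm5487*. *Mcm2* was at 72.7 to 82.0 and 72.6 to 77.6 CPM (-0.02), *Mcm3* at 60.2 to 63.0 and 62.7 to 65.4 CPM (0.06) and *Mcm5* at 53.5 to 59.9 and 52.2 to 56.5 CPM (-0.05), each with overlap. The sign of *Mcm2* and *Mcm6* changed when 1 library was left out. The ratio of *Mcm4* to *Mcm6* counts was 0.670, 0.694 and 0.691 in WT and 0.629, 0.576 and 0.643 in KO hearts, a comparison formed after the values were seen.

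*Mcm8* and *Mcm10* are not part of the loaded ring. *Mcm8* works with *Mcm9* in repair of broken forks and was at 8.08 to 10.2 CPM in WT and 8.69 to 9.98 CPM in KO (0.01, adjusted p = 0.947). *Mcm10*, which helps to activate the helicase, was at 13.7 to 14.5 CPM and 12.5 to 15.7 CPM (-0.02, adjusted p = 0.91).

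None of the 5 genes of helicase activation was called by edgeR's quasi-likelihood test, with 1 (*Gins4*) at an unadjusted p under 0.05, and DESeq2 called 0 of them. *Cdc45* was at 20.7, 23.9 and 25.2 CPM in WT and 22.3, 19.8 and 20.5 CPM in KO (-0.15, adjusted p = 0.142). It was called lower only when WT a, its lowest WT library, was left out (-0.23, adjusted p = 0.0349). *Gins4* was at 15.0 to 16.4 CPM in WT and 13.3 to 14.4 CPM in KO, without overlap (-0.18, adjusted p = 0.113), the lowest log2 fold change of all members. *Gins1* (-0.06), *Gins2* (-0.14) and *Gins3* (0.09) lay at 5.92 to 9.53 CPM and had standard errors of 0.111 to 0.129, among the highest of the members. For *Gins2*, 67.3% of the exon bases are overlapped by *Gse1* on the opposite strand.

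The polymerase genes showed no called change. Of the polymerase alpha-primase genes, which start each new strand, *Pola1* was at 46.5 to 46.7 CPM in WT and 43.4 to 46.9 CPM in KO (-0.06), and *Pola2*, *Prim1* and *Prim2* had log2 fold changes of -0.06, 0.02 and -0.09. Their adjusted p-values ran from 0.439 to 0.859. Of polymerase delta, which extends the lagging strand, the catalytic subunit *Pold1* was at 32.2, 36.9 and 39.0 CPM in WT and 38.2, 41.0 and 40.7 CPM in KO (0.15, adjusted p = 0.0819). It was called higher without WT c (0.20, adjusted p = 0.0111) and with library totals (0.20, adjusted p = 0.0205). *Pold3* was higher in every KO library (30.2 to 32.3 against 33.0 to 35.1 CPM) and *Pold2* lower (28.2 to 29.1 against 26.7 to 27.9 CPM), and neither was called (adjusted p = 0.217 and 0.5). Of polymerase epsilon, which extends the leading strand, *Pole* was at 55.9 to 57.1 CPM in WT and 49.6 to 56.1 CPM in KO (-0.09, adjusted p = 0.185), and *Pole2* had a log2 fold change of -0.06.

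*Pcna*, the sliding clamp, and the 5 subunits of its loader were not called. *Pcna* was at 82.5, 81.1 and 75.0 CPM in WT and 72.2, 76.8 and 75.4 CPM in KO (-0.09, adjusted p = 0.145). The lowest WT library, WT c, lay inside the KO range, and without it *Pcna* was called lower (-0.13, adjusted p = 0.0178). That was 1 of 18 alternatives, and with library totals the adjusted p was 0.519. *Pcna* has copies in the genome, and 19.1% of its 50-base words occur in other genes, most often in *Pcna-ps2*, so its count depends on how such reads were assigned. *Rfc1*, the largest loader subunit, was at 75.0 to 77.0 and 74.7 to 78.6 CPM, with an interval of -5.73% to 6.98%. *Rfc3* was lower in every KO library (10.6 to 11.3 against 9.27 to 10.3 CPM; -0.15, adjusted p = 0.277), and *Rfc2*, *Rfc4* and *Rfc5* had log2 fold changes of 0.05, -0.05 and 0.02.

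*Lig1*, the ligase that seals Okazaki fragments, was at 53.8 to 58.9 CPM in WT and 51.4 to 54.1 CPM in KO (-0.10, adjusted p = 0.144). *Fen1*, the flap nuclease that trims them, was at 18.9 to 22.0 and 19.8 to 21.7 CPM (0.03, adjusted p = 0.834). An antisense gene, *Gm10143*, overlaps 78.8% of the exon bases of *Fen1*, and the sources used here do not give whether counting used strand.

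In deoxynucleotide supply, *Rrm2* fell, and it was the member with the smallest adjusted p. *Rrm2* (chr12:24708241-24714146, plus strand) encodes the small subunit of ribonucleotide reductase, whose level rises in S phase and limits the enzyme. It was at 135, 140.4 and 141 CPM in WT and 125, 124 and 122 CPM in KO hearts, from 1963 to 2752 counts per library. The groups were more than 9 CPM apart. Its log2 fold change was -0.17 (standard error 0.0373, 95% interval -0.24 to -0.09, adjusted p = 0.00123), an interval of -15.5% to -6.01% of the WT level. It was called under all 18 alternatives, with log2 fold changes from -0.19 to -0.12, the smallest with library totals (adjusted p = 0.0162). About 4.95% of its 50-base words occur in other genes, most often in *Gm48445*.

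*Rrm1*, the large subunit of the same enzyme, was at 175, 169 and 167 CPM in WT and 157, 159 and 163 CPM in KO, without overlap. At a log2 fold change of -0.09 and an adjusted p of 0.0541 (standard error 0.0355) it lay just outside the threshold. It was called lower under 1 of 18 alternatives, without WT c (-0.11, adjusted p = 0.00953). With library totals its adjusted p was 0.387. The ratio of *Rrm2* to *Rrm1* counts was 0.769, 0.833 and 0.845 in WT and 0.797, 0.778 and 0.746 in KO, and the groups overlapped. *Tyms*, thymidylate synthase, was at 18.1 to 21.5 CPM in WT and 18.2 to 20.7 CPM in KO (-0.01, adjusted p = 0.954). *Tk1*, cytosolic thymidine kinase, was at 36.3 to 40.1 and 36.6 to 39.9 CPM (0.01, adjusted p = 0.893). The summed level of the 4 supply genes was 363 to 368 CPM in WT and 337 to 344 CPM in KO, and *Rrm1* and *Rrm2* make up most of it.

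For the 38 genes that were not called, the intervals give the precision of the fit with TMM scaling. The 95% interval lay within a 1.1-fold change either way for 4 of them, within 1.2-fold for 27 and within 1.5-fold for all 38. The widest reached 1.48-fold. These intervals do not cover the choice of scaling. Library totals moved the median log2 fold change of the members from -0.05 to 0.00193. Standard errors ran from 0.0355 (*Rrm1*, mean 2900 counts) to 0.129 (*Gins3*, mean 117 counts), and the least abundant genes were the least precise.

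Levels can be compared between genes only per length, here as CPM per kilobase of annotated exon, averaged over the 6 libraries. *Rrm2* was highest at 47.3 CPM per kb, followed by *Pcna* at 32.1, *Mcm6* at 21.0, *Mcm4* at 17.7 and *Mcm7* at 17.7, and *Mcm10* was lowest at 1.83. The subunits of the MCM2-7 ring, which are present once each in the ring, spanned 10.9 to 21.0 CPM per kb, a 1.92-fold range. The origin recognition subunits were more uneven, from 2.11 for *Orc1* to 12.4 for *Orc3*, a 5.86-fold range, with *Orc3* above the lowest subunit of the ring, *Mcm2*. In this order *Mcm4* and *Mcm7* did not differ beyond their spread between libraries (18.5 ± 0.630 and 18.3 ± 0.426 CPM per kb in WT, SD, n = 3). *Rrm2* (50.1 ± 1.22) and *Pcna* (33.1 ± 1.67) did. Per kb of longest transcript, *Mcm4* (18.5 ± 0.630) and *Mcm7* (27.4 ± 0.636) in WT also differed, so their order depended on the length used. With the longest transcript in place of all exon bases, the 4 highest were *Rrm2*, *Pcna*, *Rrm1* and *Mcm7*, the MCM2-7 range was 1.63-fold, and the origin recognition range was wider than over all exon bases, from 2.43 for *Orc1* to 24.3 CPM per kb for *Orc3*. Over all exon bases the called genes were spread through the order, with *Rrm2* at rank 1 of 43, *Mcm4* at rank 4, *Orc3* at rank 13, and *Cdc6* and *Orc5* at 2.76 and 2.48 CPM per kb near the bottom. With the longest transcript, *Mcm4* was at rank 10.

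**Figure D3:**
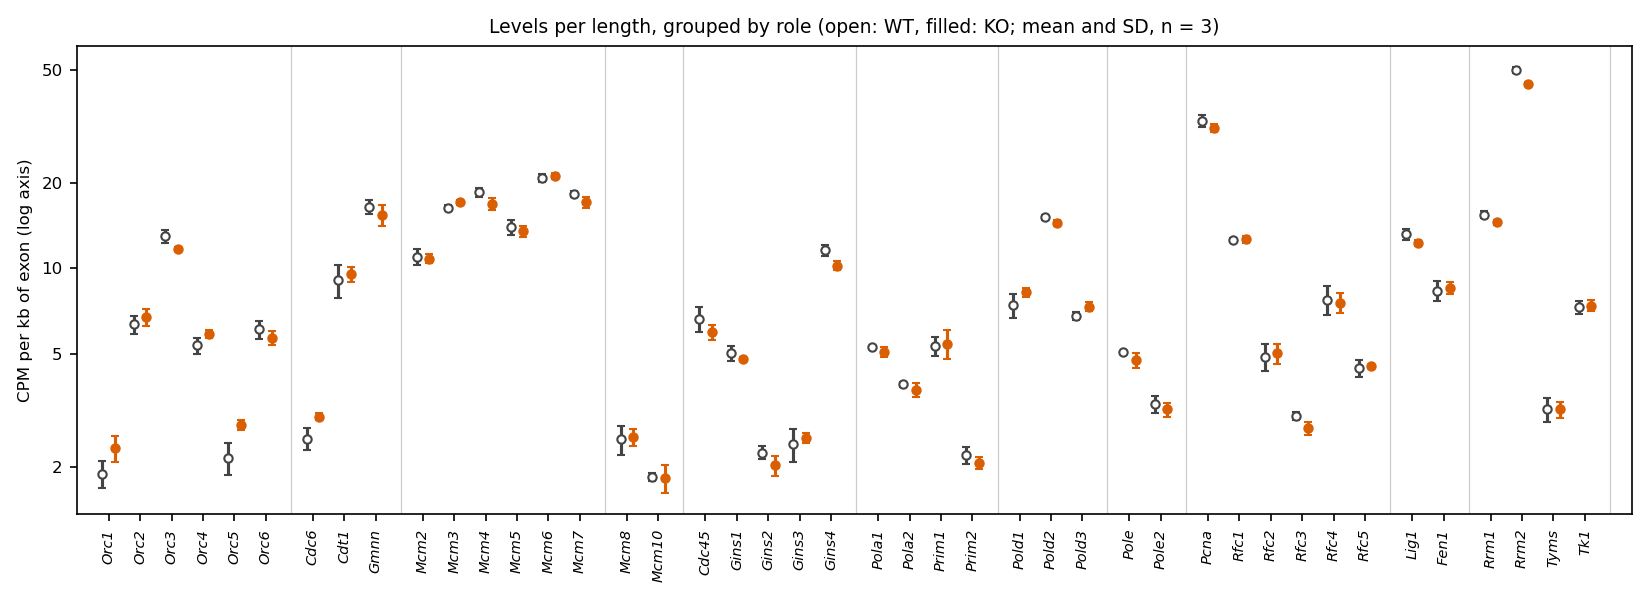
Level per length of each gene (CPM per kb of annotated exon, log axis), grouped by role, with open points for WT and filled points for KO and bars for the mean and SD (n = 3). *Rrm2* stands highest and *Mcm10* lowest, and WT and KO points lie close together for most genes.

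Other genes of the pathway, from lists compiled with earlier results of these data known, are given by their counts. Of 45 other replication genes tested, 2 were called lower (4.44%, beside 15.7% of all genes) and 5 higher (11.1%, beside 14.6%), and the median log2 fold change was 0.02. *Cdc7*, the catalytic subunit of the kinase that fires licensed origins, rose from 16.6 ± 0.788 to 21.4 ± 0.205 CPM (SD, n = 3; 0.38, adjusted p = 0.000437). *Rpa3* and *Rpa1*, subunits of the same single-strand DNA binding complex, went opposite ways, *Rpa3* at 0.29 (adjusted p = 0.0217) and *Rpa1* at -0.18 (adjusted p = 0.00479). *Dna2*, a flap nuclease, rose (0.24, adjusted p = 0.015), as did *Tonsl*, which works at stalled forks (0.25, adjusted p = 0.0469), and *Pole3*, a histone-fold subunit of polymerase epsilon, fell (-0.33, adjusted p = 0.0299). *Timeless*, of the fork protection complex, was the remaining higher gene (0.21, adjusted p = 0.0354) and is named after its values were seen.

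Of 29 other nucleotide genes, 2 were called lower (6.9%, beside 15.7% of all genes) and 7 higher (24.1%, beside 14.6%). Their median was 0.07 on the log2 scale, and 6 of the 29 had a log2 fold change below 0, beside 49.6% of all genes. *Dctd*, deoxycytidylate deaminase, rose from 20.8 ± 0.800 to 26.6 ± 1.49 CPM (SD, n = 3; 0.35, adjusted p = 0.000427), and *Dtymk*, thymidylate kinase, from 21.8 ± 1.23 to 26.1 ± 1.49 CPM (0.25, adjusted p = 0.0085). Both act in thymidine nucleotide supply, beside the uncalled members *Tyms* and *Tk1*. *Prps2*, which makes the ribose donor of nucleotides, rose by 0.27 (adjusted p = 0.00026) and *Cad*, which starts pyrimidine synthesis, by 0.25 (adjusted p = 0.000558) on the log2 scale. *Ctps*, which makes CTP, fell (-0.20, adjusted p = 0.000321), as did *Nme2*, a nucleoside diphosphate kinase (-0.17, adjusted p = 0.000493).

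Among 32 regulators of entry into S phase, 8 were called lower (25%, beside 15.7% of all genes) and 6 higher (18.8%, beside 14.6%). The cyclin-dependent kinase inhibitors *Cdkn1a* (44.1 ± 2.07 to 29.8 ± 2.76 CPM; -0.57, adjusted p = 1.81e-07), *Cdkn2c* (-0.31, adjusted p = 0.000595) and *Cdkn1b* (-0.21, adjusted p = 0.00202) fell, and so did the cyclin *Ccnd1* (176 ± 5.81 to 157 ± 2.95 CPM; -0.16, adjusted p = 0.000986). *E2f2*, an activating E2F factor, rose from 9.78 ± 1.02 to 13.0 ± 1.18 CPM (0.40, adjusted p = 0.00398), and *Rbl1*, a pocket protein, rose by 0.18 on the log2 scale (adjusted p = 0.0186). Genes that restrain and genes that promote S phase entry thus stood on both sides.

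Of 54 genes of G2 and mitosis, 18 were called lower (33.3%, beside 15.7% of all genes) and 0 higher (beside 14.6%) with TMM scaling. Library totals gave 9 lower and 1 higher, beside 11.1% and 21.1% of all genes. At an unadjusted p under 0.05 with TMM scaling, 26 were lower and 1 higher, beside 20.8% and 20% of all genes. *Hmgb2* (128 ± 3.6 to 97.8 ± 4.39 CPM; -0.39, adjusted p = 4.26e-08), *Cenpf* (-0.32, adjusted p = 2.37e-08), *Cdca3* (-0.32, adjusted p = 0.000123) and *Nek2* (-0.24, adjusted p = 0.00368) led the list. *Mki67*, the proliferation marker, fell from 615 ± 24.5 to 546 ± 10.3 CPM (-0.17, adjusted p = 7.92e-05), a log2 fold change of the size seen for *Rrm2*. *Top2a* was not called (-0.07, adjusted p = 0.0687). The median log2 fold change was -0.08 over these genes and -0.05 over the 43 replication genes. Whether the lists differ from each other was not tested.

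**Figure D4:**
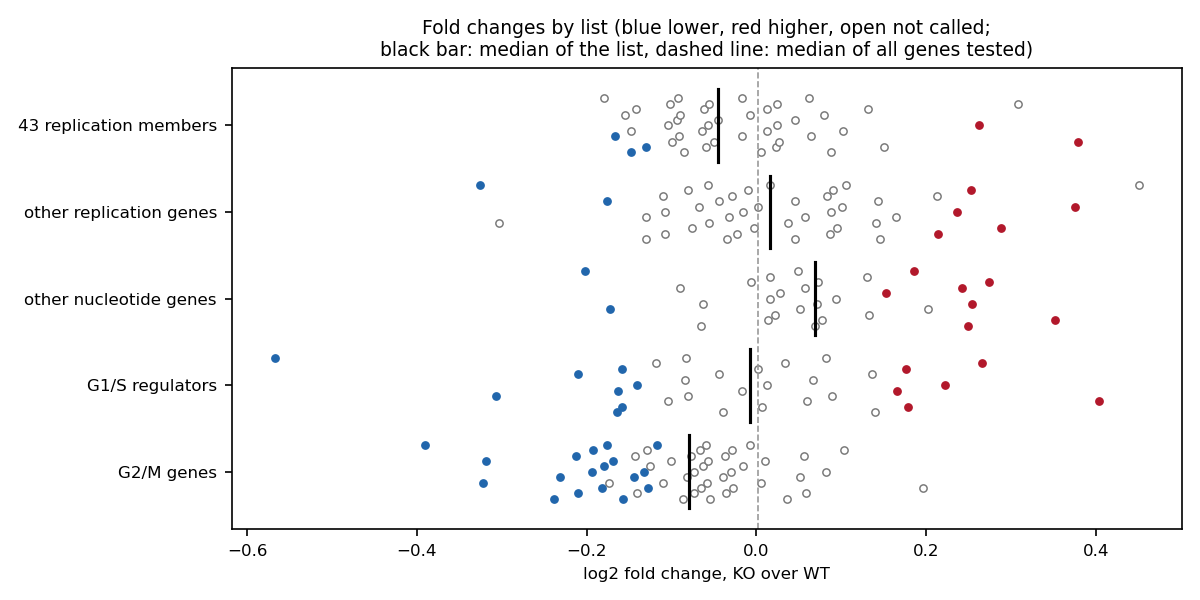
Log2 fold change of KO over WT for each gene of the 43 replication genes and of 4 other lists, with blue for called lower, red for called higher and open points for not called, a black bar for the median of each list and a dashed line for the median of all genes tested. The replication genes hold 3 blue and 2 red points, and the G2/M genes 18 blue points and 0 red.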

How the data were processed

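Total RNA of E18.5 hearts (3 WT, 3 *Pkm1*-KO) was depleted of ribosomal RNA and sequenced in paired ends. Per the labels, the authors trimmed reads with cutadapt 1.18, aligned them to mm10 with HISAT2, and used StringTie to assemble transcripts. The table the authors deposited holds raw, whole-number counts for each gene symbol. The counting program, its annotation, its use of strand and the filter on low genes are not given in the sources used here. The authors also deposited their own edgeR comparison, as log2 fold changes and average log2 CPM and as p-values and false discovery rates, and these columns were not used.

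The counts were tested with edgeR 4.0.16 in R 4.3.3 (filterByExpr, TMM, glmQLFit and glmQLFTest with genotype as the only term, Benjamini-Hochberg adjustment), and 13804 of 13809 genes were tested. An adjusted p under 0.05 was a call. Intervals use the t distribution of the fit. A floor of 3 counts is 0.151 to 0.193 CPM by library total, for counting error only. In the main test, p-values set the difference between genotypes against the spread between these libraries, which is estimated in part from all genes tested. Alternatives were RLE size factors, TMM without *Rn45s* (2.21% to 2.48% of counts in WT, 2.70% to 2.79% in KO), DESeq2 1.42.0, limma 3.58.1 voom, edgeR's exact and likelihood ratio tests, other filters, X and Y genes left out, thinned libraries, WT a and WT b summed, and each library left out. Positions and lengths are from GENCODE M21 (GRCm38), promoters from RefSeq (GRCm38.p6). Scripts were tested on simulated data. Plots used matplotlib 3.10.9 and Python 3.11.15.

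The members and lists were chosen with earlier results of these data known. Values in every library are given for called members, the 4 with the highest level per length and the 2 nearest the threshold, with others added for context. Of other lists, up to 4 called genes per direction with the largest change are named, plus the NFY subunits, *Mki67* and *Top2a*.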

Additional observations from a re-analysis of the deposited data

How the results depend on the processing

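Over 18 alternatives, the values of single members kept their direction and side of the threshold in 709 of 773 cases, lost a call in 19, gained one in 11 and changed sign in 34. *Rrm2* and *Orc5* were called in each. The sign changes fell on 13 members that were not called, and 0 called members changed sign. No paired analysis was possible because no replicate number stands in the headers of the count table. Members called lower numbered 3 and higher 2. The higher count was 1 with DESeq2, beside 9.87% of all genes, and 1 after WT a and WT b were summed, beside 13.2%. Library totals (added after the data were seen) gave 1 lower and 5 higher, beside 11.1% and 21.1% of all genes. With each library left out, members called ran from 1 to 6 lower and 1 to 4 higher. Over all genes, 1704 to 2306 were then lower and 1479 to 2013 higher. The median of the members, -0.05, was -0.0307 with X and Y genes left out, -0.0208 thinned, -0.0365 after WT a and WT b were summed, 0.00193 with library totals and -0.0485 to -0.022 with each library left out. Other replication genes called lower (2) and higher (5) came to 1 and 1 with DESeq2, 3 higher thinned, 3 higher after summing WT a with WT b, 1 lower with library totals, and 0 to 3 lower and 2 to 5 higher with each library left out. G2/M genes were 9 lower and 1 higher with library totals, and 11 to 22 lower and 0 to 1 higher with each library left out. With the longest transcript, 2 of the 4 highest members per length were the same. The causes of these changes were not tested.

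With library totals *Mcm2* was 0.0315, *Mcm10* 0.0303, *Rfc4* 0.00193 and *Tyms* 0.0395 on the log2 scale. Thinned, *Mcm8* was -0.0572, *Mcm10* 0.0306, *Tyms* 0.0175 and *Tk1* -0.00563, and after WT a and WT b were summed *Tyms* was 0.00382. With each library left out, the range was -0.0261 to 0.167 for *Cdt1*, -0.0507 to 0.0339 for *Mcm2*, -0.00292 to 0.042 for *Mcm6*, -0.0725 to 0.088 for *Mcm8*, -0.0963 to 0.064 for *Mcm10*, -0.078 to 0.0893 for *Prim1*, -0.0157 to 0.021 for *Rfc1*, -0.0439 to 0.102 for *Rfc2*, -0.131 to 0.0217 for *Rfc4*, -0.00827 to 0.080 for *Rfc5*, -0.0167 to 0.0958 for *Fen1*, -0.0549 to 0.0708 for *Tyms* and -0.0216 to 0.055 for *Tk1*.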
